A study of Caenorhabditis elegans with 2 samples.

Results

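The gst class of Caenorhabditis elegans encodes most of the glutathione transferases of the worm. The members were taken by name, as the protein-coding genes on the nuclear chromosomes of the WBcel235 annotation whose name starts with gst-. With 1 gene of the class not analysed here, this gave 43 of 19973 genes. Glutathione transferases join the tripeptide glutathione to reactive electrophiles, such as drugs, pesticides and products of lipid oxidation, so that these can be exported from the cell. Several gst genes are known targets of SKN-1, the worm counterpart of the mammalian Nrf factors and the main activator of its oxidative stress response. HLH-30 is the worm counterpart of mammalian TFEB, a basic helix-loop-helix factor that binds E-box sequences and is known for its control of autophagy, lysosome and stress genes.

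The measurement was chromatin immunoprecipitation followed by sequencing (ChIP-seq) of HLH-30 in whole hermaphrodites at the L4 larval stage. The only group was strain OP433, genotype unc-119(tm4063) III; wgIs433, with HLH-30 made from a transgene with GFP and FLAG at its C-terminal end and precipitated by an antibody against GFP. There were 2 biological replicates and no other condition, so binding could be placed and ranked but not compared between conditions. The labels do not state the promoter or copy number of the transgene, and the stated genotype names no deletion of the native hlh-30 gene. Whole animals were used, so no tissue can be assigned to a peak.

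The authors' thresholded list held 7168 peaks on ce11, taken from pooled calls on both replicates. Each peak was placed by its summit, the position of its highest signal. A gene counted as occupied where a summit lay between 1000 bp upstream and 200 bp downstream of an annotated 5′ end of one of its transcripts. Because worm messenger RNAs are often trans-spliced, transcription may start elsewhere than at the annotated end. The strength of a peak is given as the signal value of the authors' files, a number without a stated scale that serves for ranking and description alone. The pooled signal ran from 31.9 to 1388 over the thresholded list, with a median of 61.8. No counts of reads are in these files, so the depth behind each value is unknown.

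HLH-30 occupied the promoters of 9 gst genes, namely gst-42, gst-20, gst-27, gst-7, gst-43, gst-9, gst-1, gst-28 and gst-36. That was 9 of 43 members, or 20.9% (95% Wilson interval 11.4 to 35.2, counting error only), against 20.1% of all protein-coding genes (4012 of 19973). The share was close to that of all genes, so it is not a result about the class, and no set test was made. The other 34 members had no thresholded summit in a promoter window.

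The 2 strongest gst peaks and that of gst-28 held a palindromic E-box, CACGTG, the type of site that TFEB family factors recognise, within 50 bp of the summit. The sequences from these 3 peaks are shown first, since they hold the site that HLH-30 is known to bind, and the capitals mark the E-box. Letters come from the WBcel235 genome and are written 5′ to 3′ on the reverse strand, the strand of each gene. The stretch of gst-42 is chrX:11727937-11728027 and ends at the base before the annotated 5′ end. That of gst-20 is chrII:13609808-13609837 and crosses the 5′ end. That of gst-28 is chrII:15167541-15167570 and lies just inside the gene.
gst-42: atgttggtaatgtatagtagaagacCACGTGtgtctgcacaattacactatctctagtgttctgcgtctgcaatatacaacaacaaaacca
gst-20: aagagacggagaCACGTGgcatgggaagta
gst-28: caactgccagcaCACGTGaaggcagagaca

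The strongest gst peak lay at gst-42, which encodes maleylacetoacetate isomerase, the zeta class enzyme that uses glutathione in the breakdown of tyrosine. Its signal was 78.5 in replicate 1 and 63.0 in replicate 2, or 70.7 ± 10.9 (SD, n = 2), with a pooled signal of 145.6. The peak was 177 bp wide (ce11, chromosome X, 11727876 to 11728052), its summit lay 16 bp upstream of the 5′ end, and it ranked 995 of 7168. The gene stands on the reverse strand (WBGene00001790, 11726264 to 11727936). The same summit fell in a promoter window of the neighbour D1053.2, so the peak cannot be assigned to either gene alone.

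The second strongest was at gst-20 (WBGene00001768), a member of a long run of gst genes on chromosome II. Its signal was 64.6 in replicate 1 and 61.4 in replicate 2, or 63.0 ± 2.27 (SD, n = 2), and the pooled signal was 124. This was the narrowest gst peak, at 117 bp (chromosome II, 13609774 to 13609890), with its summit 27 bp upstream. Both replicates gave nearly the same value at gst-20. The CACGTG printed above for gst-20 was 28 bp from the summit.

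The peaks of gst-27 and gst-7 were also in the stronger 50% of the thresholded list. At gst-27 (WBGene00001775) the signal was 57.6 in replicate 1 and 48.5 in replicate 2, or 53.1 ± 6.42 (SD, n = 2), with a pooled signal of 106 and a summit 320 bp upstream (chromosome II, 15165876 to 15166225). At gst-7 (WBGene00001755) it was 37.8 in replicate 1 and 45.1 in replicate 2, or 41.5 ± 5.19 (SD, n = 2), with a pooled signal of 82.7 and a summit 214 bp upstream (chromosome II, 4881673 to 4882022). A further pooled entry of gst-7, 14 bp upstream, stayed below the threshold at a signal of 19.5. Neither gene had a CACGTG or a CACATG, the other common E-box form, anywhere in its promoter window. The sequence around these 2 summits is shown because the peaks are strong without an E-box of either form. The stretch of gst-27 is chrII:15165976-15166126 on the reverse strand, and that of gst-7 is chrII:4881773-4881923 on the forward strand, each with the summit at its middle base.
gst-27: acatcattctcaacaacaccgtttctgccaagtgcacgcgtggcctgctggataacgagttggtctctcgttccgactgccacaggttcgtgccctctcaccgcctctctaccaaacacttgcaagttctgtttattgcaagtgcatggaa
gst-7: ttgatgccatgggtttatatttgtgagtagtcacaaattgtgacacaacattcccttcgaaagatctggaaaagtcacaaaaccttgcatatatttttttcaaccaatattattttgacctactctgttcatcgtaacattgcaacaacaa

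The fifth peak, at gst-43 (WBGene00001791), belongs to the other gene with a maleylacetoacetate isomerase product name in RefSeq. Its signal was 22.4 in replicate 1 and 25.8 in replicate 2, or 24.1 ± 2.40 (SD, n = 2), with a pooled signal of 50.9, below the median of the list. The summit lay 237 bp upstream (chromosome I, 2900913 to 2901262) and fell in a window of copa-1 as well, which encodes a coat protein of transport vesicles. As at gst-42, the peak cannot be assigned to either gene alone.

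The remaining 4 peaks stood close to the threshold, at pooled signals of 35.9 for gst-9, 34.7 for gst-1, 34.0 for gst-28 and 32.9 for gst-36. At gst-9 (chromosome II, 4891340 to 4891689, summit 70 bp upstream) the signal was 15.1 in replicate 1 and 24.3 in replicate 2. At gst-1 (chromosome III, 9058921 to 9059270, summit 235 bp upstream), which RefSeq names a pi class glutathione transferase, it was 14.3 in replicate 1 and 24.4 in replicate 2. Replicate 2 was the higher at both. At gst-28 (chromosome II, 15167374 to 15167723, summit 28 bp downstream) replicate 1 was the higher, with 25.3, and replicate 2 had 13.4. At gst-36 (chromosome X, 9863234 to 9863583, summit 449 bp upstream) it was 13.6 in replicate 1 and 19.6 in replicate 2, and the peak was shared with R07B1.5. The replicate 1 entry of gst-36 had its summit 145 bp from the pooled one. It also overlapped a further pooled entry of this promoter, below the threshold at 15.7, and lay nearer to that one, so its value cannot be given to the thresholded peak alone. By the values given for the 9 peaks, replicate 1 was higher at 4 and replicate 2 at 5, with gst-36 counted among the 5 despite this limit.

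**Figure D1:**
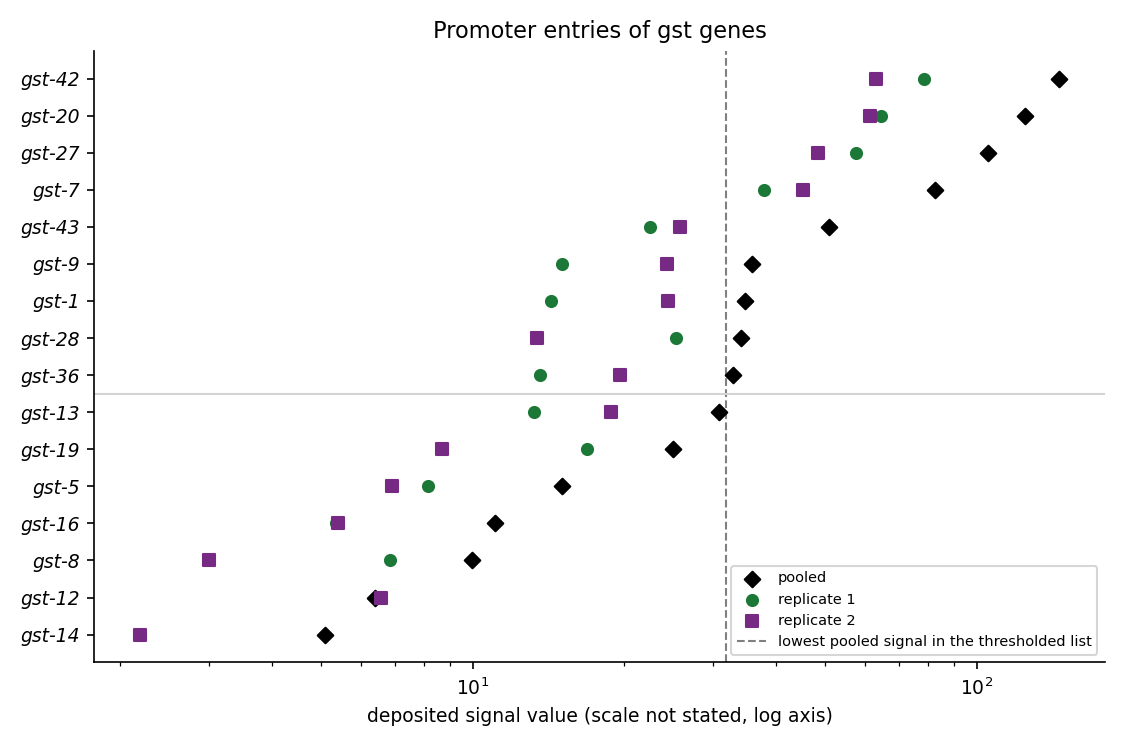
Signal values of the strongest pooled promoter entry of each gst gene that had one, on a log axis, with the pooled value as a diamond, replicate 1 as a circle and replicate 2 as a square, and the occupied genes above the grey line. The 5 upper genes stand well to the right of the dashed line at 31.9, the lowest pooled signal of the thresholded list, and the next 4 lie between 32.9 and 35.9. Among these entries, single replicate values lie below the pooled value except at gst-12.

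The strength of the peaks was uneven within the class. The strongest promoter signal per occupied gene had a median of 50.9 over the 9 gst genes (range 32.9 to 145.6), against 71.3 over the 4012 occupied genes. In the stronger 50% of the thresholded list lay 4 of the 9 gst peaks, against 58.1% of all occupied genes (2332 of 4012) by their strongest peak. In the weakest 20% lay another 4 of 9, against 15.1% (607 of 4012). An occupied gene could hold several summits, of which the strongest was taken, while each occupied gst gene held 1. This choice raises the values over all genes. Over single thresholded peaks the median was 61.8, and these parts hold 50% and 20% of the list by definition. With 9 peaks these shares are descriptions, and no test was made of them.

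**Figure D2:**
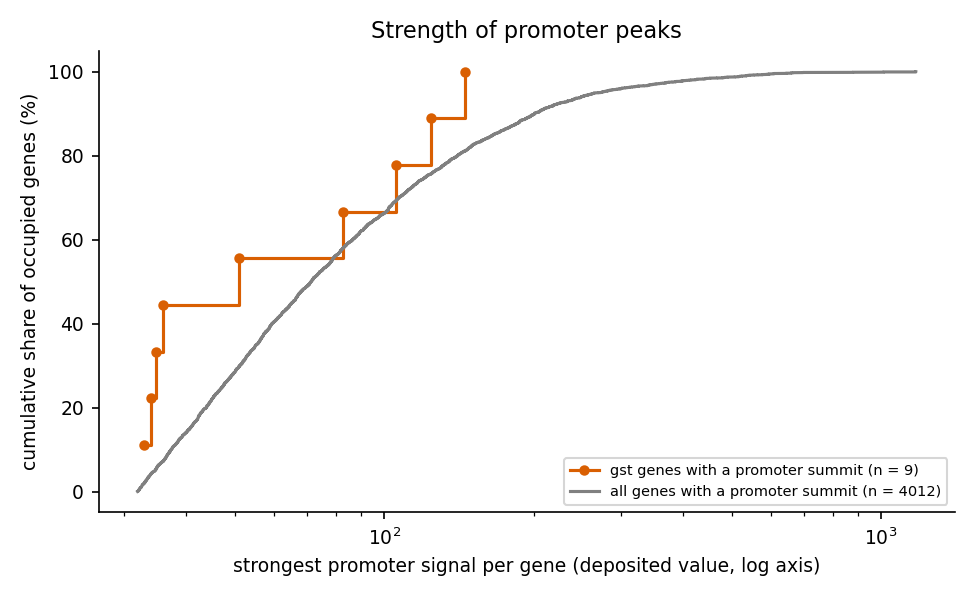
Cumulative share of occupied genes by their strongest promoter signal (log axis), for the 9 gst genes in orange and all 4012 occupied genes in grey. The orange steps lie to the left of the grey line at the low end, where 4 gst genes have signals up to 35.9, and none of the gst genes exceeds 145.6.

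Support by each replicate was read from its strongest entries, a limit on the same kind of signal that sets the pooled strength, so weak pooled peaks can be counted as unsupported for that reason alone. To stand for each replicate alone, its 7168 strongest entries were taken, down to a signal of 16.9 in replicate 1 and 17.2 in replicate 2. The peaks of gst-42, gst-20, gst-27, gst-7 and gst-43 overlapped such an entry in both replicates, which made 5 of 9, against 78.5% of all thresholded peaks (5625 of 7168). The other 4 overlapped one in a single replicate, which was replicate 2 for gst-9, gst-1 and gst-36 and replicate 1 for gst-28. In the weakest 20% of the list, 0 of the 4 gst peaks were supported by both replicates, against 23.9% of all such peaks (343 of 1434). Outside the weakest 20% it was 5 of 5 gst peaks, against 92.1% (5282 of 5734). Strength was not matched within these parts, and the 4 weak gst peaks ranked 6446 to 6983 of 7168. With any deposited entry counted, 9 of 9 gst peaks overlapped an entry in both replicates.

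Taken alone, replicate 1 gave 7 occupied gst genes, or 16.3%, against 20.2% of all genes, and replicate 2 gave 10, or 23.3%, against 20.0% of all genes. The members occupied in both replicates were 6, and those in either were 11, with no count over all genes to set beside them. The sixth gene besides the 5 named above was gst-33 on chromosome V, which had no entry at all in the pooled list. Its promoter entries had a signal of 27.6 in replicate 1, 76 bp upstream, and 20.2 in replicate 2, 22 bp upstream, and ranked 4299 and 6111 in their lists. Of the 5734 strongest entries of replicate 1 that overlapped one of replicate 2, 51 (0.889%) likewise had no pooled entry. The genes with such an entry in a promoter window numbered 51, of which gst-33 was the only gst member. Why they are missing from the pooled list was not tested.

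Among the 34 members without a thresholded summit, 7 had a weaker entry in the pooled list. The nearest to the threshold was gst-13, with a pooled signal of 30.8 at a summit 1 bp upstream, a signal of 13.2 in replicate 1 and 18.8 in replicate 2. It was followed by gst-19 at 25.0, with 16.9 in replicate 1 and 8.69 in replicate 2, and gst-5 at 15.0. The last 4 were gst-16 at 11.1, gst-8 at 9.99, gst-12 at 6.39 and gst-14 at 5.09. The pooled list holds background by design and has a median signal of 11.9, so the lowest of these values lie in the range of its weaker entries. Counting any pooled entry, 16 of 43 gst genes had one in a promoter window, or 37.2%, against 39.6% of all genes. A further 7 members, gst-33 among them, had an entry in a single replicate list or in both but none in the pooled list, and 20 had no entry in any list.

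The members with no entry included gst-10, whose enzyme is known for the conjugation of 4-hydroxynonenal, a toxic product of lipid oxidation. They also included gst-44, the omega class member of the set by its RefSeq product name. By chromosome, occupied members were 1 of 2 on I, 5 of 25 on II, 1 of 1 on III, 0 of 3 on IV, 0 of 9 on V and 2 of 3 on X. Over all genes the occupied share was 23.7% on I, 18.2% on II, 26.9% on III, 17.6% on IV, 14.9% on V and 24.4% on X. Chromosome II holds 25 of the 43 members, and its occupied gst share of 5 of 25 was close to that of all its genes.

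Distances to the gene start are bounded by the promoter window, and the median distance of the gst peaks was close to that of all genes. Of the 9 gst summits, 8 were upstream of the 5′ end, and the median distance was 214 bp (range 16 to 449), against 243 bp over all gene and summit pairs. Within 100 bp of the 5′ end lay the summits of gst-42, gst-20, gst-28 and gst-9, or 4 of 9, against 19.3% of all pairs (875 of 4537). A peak shared with another protein-coding gene was found for 3 of 9 gst peaks, against 22.0% of all promoter peaks (808 of 3679).

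**Figure D3:**
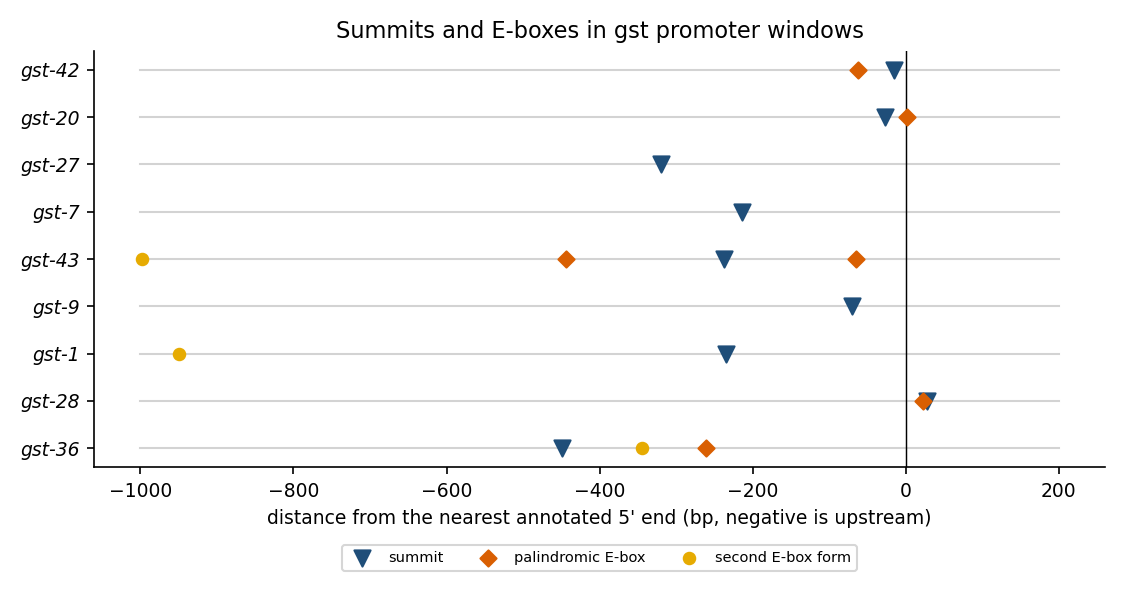
Position of the thresholded summit (triangle), of CACGTG (diamond) and of CACATG (circle) in the promoter windows of the 9 occupied gst genes, in bp from the nearest annotated 5′ end, with negative values upstream. E-boxes lie close to the summit at gst-42, gst-20 and gst-28, while gst-27, gst-7 and gst-9 have none of either form.

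Sites were searched on both strands as fixed strings within 50 bp of each summit. CACGTG was found at 3 of 9 gst peaks, against 11.0% of all thresholded peaks and 9.70% of promoter peaks. In equally wide stretches with their centre 500 bp to the left, 1 of the 9 gst peaks and 2.04% of all peaks held one. At gst-28 the site was 6 bp from the summit and at gst-42 48 bp. CACATG was found at 0 of 9 gst peaks, against 15.2% of all peaks. The 2 forms were searched separately, since a CACGTG is never also a CACATG.

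Core sites of SKN-1 were searched in a pair of forms. The form GTCAT was found at gst-1 and gst-43, or 2 of 9 gst peaks, against 23.4% of all peaks. At gst-1 a site of this form lay 1 bp from the summit. The form ATCAT was found at gst-1 and gst-36, again 2 of 9, against 26.0% of all peaks. In the stretches 500 bp to the left it was found at 4 of 9 gst peaks, more than at the summits, and at 22.4% of all peaks. GTAAACA, a DAF-16 site, was found only at gst-28 among the 9, against 2.50% of all peaks. The GATA factor site TGATAA was found at gst-42 alone, against 15.1% of all peaks. The AP-1-like site TGACTCA was found at 0 of 9 gst peaks, against 1.77% of all peaks. With 9 peaks a single site moves each share far, and a match is not evidence of binding by that factor.

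Over whole promoter windows, 9 of 43 gst genes held a CACGTG, or 20.9%, against 21.4% of all genes. Of these 9, 5 were occupied (55.6%), namely gst-20, gst-28, gst-36, gst-42 and gst-43, and of the 34 without the site 4 were (11.8%). Over all genes the occupied shares were 27.9% with the site and 18.0% without. The site was not always at the peak. It lay 188 bp from the summit at gst-36, and at gst-43 the sites lay 172 and 207 bp away. With 9 genes holding the site these shares are descriptions, and no test was made of them. The gst genes that held a CACGTG without a thresholded summit were gst-14, gst-31, gst-32 and gst-38. CACATG was present in 13 of 43 gst windows (30.2%), against 37.05% of all genes, and 3 of these 13 were occupied (23.1%), against 23.4% of all genes with the site.

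The arrangement of the gst genes in runs gave no further separation. Neighbours whose 5′ ends lay within 10000 bp of the next member were joined into a run, which gave 4 runs with 24 genes. Of these 24 genes 5 were occupied (20.8%), against 4 of the 19 genes that stand alone (21.1%). In the run of 4 genes on chromosome II that spans 13.7 kb, gst-7 and gst-9 were occupied and gst-6 and gst-8 were not. In the run of 9 genes that spans 22.7 kb, gst-20 at its end was the only occupied member. In the other run of 9 genes, of 21.6 kb, gst-27 and gst-28 were occupied, with pooled signals of 106 and 34.0. The remaining run, gst-3 and gst-2 on chromosome IV, had no summit.

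Some thresholded summits near gst genes lay outside every promoter window, the first pair of them within runs and the others outside. A summit of signal 39.4 lay 74 bp past the 3′ end of gst-14 and 1511 bp upstream of gst-15. Another of 56.9 lay 1457 bp upstream of gst-39 and 856 bp past the 3′ end of gst-31. A summit of 57.7 was 4852 bp upstream of gst-35. On chromosome I, a summit of 94.0 lay 3989 bp beyond the 3′ end of gst-25.

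Tandem gst copies share sequence, which bears on where reads can be placed. As a measure of it, the share of 31-base words in a promoter window that occur once in the genome was counted. It was 99.4% in the median gst window, against 100% in the median window of all genes. Windows under 90% were found for 11 of 43 gst genes (25.6%), against 15.2% of all genes. They made up 1 of the 9 occupied members (gst-28, at 58.7%) and 10 of the 34 others (29.4%), with the lowest at gst-10 (13.7%) and gst-39 (21.3%). The intervals of all 9 gst peaks, gst-28 included, were 100% single-copy by this measure. The sources used here give neither the read length nor the treatment of reads with several matches, and the part of repeated sequence in the missing peaks was not tested.

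The genes around the transferases were read from 7 groups, chosen with earlier results of these data known. Of 43 glutathione pathway genes outside the gst class, 16 were occupied, or 37.2% (95% Wilson interval 24.4 to 52.1), against 20.1% of all genes. In a narrower window, from 500 bp upstream to 100 bp downstream, 9 were occupied (20.9%), against 15.8% of all genes. No test was made, and the difference from the gst class was not tested either. A gene with several annotated 5′ ends has several windows. Each gst gene had 1 or 2 such ends, while daf-16, wdr-23 and skn-1 had summits at more than 1 end. The effect of this on the shares was not tested.

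In synthesis and reduction 3 of 4 genes were occupied. These were E01A2.1, the regulatory subunit of glutamate-cysteine ligase (81.6), gss-1, glutathione synthetase (65.0), and gsr-1, glutathione reductase (40.8). The catalytic subunit gcs-1, a standard SKN-1 target, was not under the threshold and window used. It was occupied with double the number of peaks and in replicate 1 alone. A thresholded summit also had gcs-1 as its nearest gene, a setting without a limit on distance. No thresholded summit lay from 2000 bp upstream to 500 bp downstream of its 5′ ends, so that one was not a promoter summit. E01A2.1, gss-1 and gsr-1 each shared the peak with a neighbour, akir-1, chch-3 and madf-8 in that order. Of other transferase classes 2 of 5 were occupied, the kappa class genes gstk-1 (68.8, shared with ZK1307.1) and gstk-2, which had 2 summits (52.7 and 42.2). The omega class genes gsto-1, gsto-2 and gsto-3 had none.

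Of the exporters of the ATP-binding cassette type, which move conjugates out of cells, 3 of 8 were occupied. mrp-5, known in the worm for the export of heme, had the strongest peak of the pathway at 248, with a signal of 115 in replicate 1 and 130.4 in replicate 2. mrp-2 and mrp-3 followed at 78.6 and 58.9. Of the cadmium responsive genes, 1 of 6 was occupied, cdr-6 (38.8), and of the glutathione peroxidases 1 of 8, gpx-1 (39.9). Of the glutaredoxins and glyoxalase 2 of 6 were, glrx-3 (37.4, shared with figl-1) and glrx-10 (34.7).

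Among the regulators 4 of 6 were occupied. wdr-23, whose product directs the destruction of SKN-1, held 3 summits, of 241, 113 and 74.7. The strongest of them had a signal of 124 in replicate 1 and 134.7 in replicate 2. daf-16, the FOXO factor of insulin signalling, held 2 (119 and 45.3), and skn-1 itself held 2 (62.2 and 35.5). elt-3, a GATA factor of the epidermis, held 1 at 33.2, while hsf-1 and nhr-86 had none. In a window from 2000 bp upstream to 500 bp downstream hsf-1 and nhr-86 were occupied, and in that from 500 bp upstream to 100 bp downstream skn-1 and elt-3 were not. The 2 strongest pathway peaks, at mrp-5 and wdr-23, exceeded the strongest gst peak of 145.6.

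Other settings of the threshold and the window were set beside all genes. In the window from 500 bp upstream to 100 bp downstream the gst count stayed at 9 of 43 (20.9%), against 15.8% of all genes. With the stronger 50% of peaks it was 4 of 43 (9.30%), against 11.7% of all genes, and with a wider window, from 2000 bp upstream to 500 bp downstream, 13 of 43 (30.2%), against 25.9%.

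**Figure D4:**
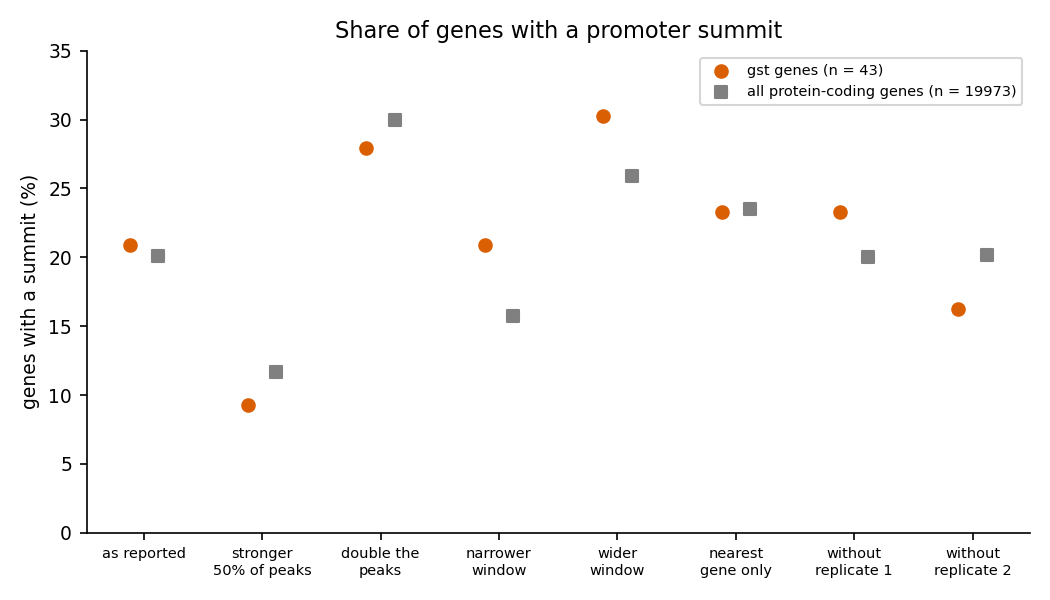
Share of genes with a promoter summit (%), for the 43 gst genes in orange and all 19973 protein-coding genes in grey, as reported and under 7 other settings. In the setting of the nearest gene only, a summit counted at any distance, so that share is not of promoter summits. The orange point lies above the grey one in 4 of the 8 settings and below it in the other 4, and the gst share runs from 9.30% to 30.2% over the settings.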

How the data were processed

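The authors' peak lists in narrowPeak layout on ce11 were used. Per the text deposited with each sample, they were called against a control alignment for each replicate and for the pool, and 1 thresholded list was made from them with the irreproducible discovery rate. Neither caller, aligner nor threshold is stated in the labels or files used here. The signal value deposited by the authors has no stated scale. The deposited −log10 q-value was 4.30 for each gst peak in the thresholded list and ranked nothing. All 7168 thresholded peaks were the strongest of the 30000 pooled entries. The ce10 lists were not used, and no coordinate was converted. Replicates come from separate biosamples per the labels.

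Summits were joined to annotation release 115 of WBcel235, which is ce11, in Python 3.11.15 with numpy 2.4.6 and scipy 1.17.1 (Wilson intervals). The assignment of summits to promoter windows was tested on simulated summits, and the motif search was not tested in this way. Overlap meant at least 1 bp. No set test was made. Every member with a promoter summit was named, then the members with the highest pooled entries below the threshold (up to 10), and every occupied pathway gene. Of 44 pathway names, 1 matched no gene. In the gst class, 1 gene is not analysed here. Members, lists and tests were chosen with earlier results of these data known. Alternatives covered the peak threshold, the window, the nearest gene, the overlap and each replicate alone.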

Additional observations from a re-analysis of the deposited data

How the results depend on the processing

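With the stronger 50% of thresholded peaks, 4 gst genes (9.30%) and 8 pathway genes (18.6%) were occupied, against 11.7% of all genes. The median gst signal was then 115, since weaker peaks are left out. In the window of 500 bp upstream to 100 bp downstream, 9 pathway genes were occupied (20.9%), against 15.8% of all genes. The gst count stayed at 9 (20.9%). Without replicate 2, 7 gst genes (16.3%) and 15 pathway genes (34.9%) were occupied, against 20.2% of all genes. Without replicate 1 it was 10 gst genes (23.3%) and 17 pathway genes (39.5%), against 20.0%. The median gst signal was 37.8 and 25.1 in that order, on the scale of a single replicate. Of the gst peaks, 3 were found in both replicates when 50% of both entries had to overlap, and 9 were when any deposited entry counted. The peaks of gst-20 and gst-42 are narrow, at 117 and 177 bp, and the part of width in the lower count was not tested. With double the number of peaks 12 of 43 gst genes were occupied (27.9%), against 5991 of all 19973 genes, a slightly higher share, with gst-5, gst-13 and gst-19 gained. Giving each summit only to the nearest gene, at any distance, gave 10 (23.3%), against 23.5% of all genes. Of the 9, 7 were kept, gst-36 and gst-43 were lost, and gst-14, gst-35 and gst-39 were gained. These gains are not promoter summits, and that of gst-35 lay 4852 bp upstream. No paired analysis was possible because there is 1 group. Depth is unknown, and n = 2 limits every SD.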
